A study of Mus musculus with 10 samples.

Results

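The subject is the expression response to 5 µM of 4-hydroxytamoxifen (OHT) that mouse embryonic fibroblasts of 2 lines had in common. It was measured on 8 of the 10 arrays of the study: the 4 arrays of cells given 5 µM and the 4 arrays of untreated cells, with the line as an additive term. A gene was counted as shared when its probe set passed the test of that drug term (Benjamini-Hochberg adjusted p under 0.05 over all tested probe sets), when its mean moved the same way in both lines, and when in each line both treated arrays lay beyond both untreated arrays. Of 10594 genes tested, 327 met this rule, 210 higher and 117 lower with the drug. The probe sets tested were the 20582 of 45101 with a mean log2 value of at least 4 in any of the 4 groups, values under 4 being near the background of the arrays.

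The CDKO line carries a conditional knockout of Dicer, the enzyme that cuts microRNA precursors, and the other line is named wild type (WT) in the sample titles, although the description given with every sample speaks of a conditional knockout. The titles were followed. All cells were fibroblasts kept in DMEM with 10% serum, and treatment lasted 4 days. The 4 groups were CDKO untreated, CDKO at 5 µM, WT untreated and WT at 5 µM, with 2 arrays each, and 2 further arrays of CDKO cells at 1 µM had no WT counterpart and stayed out of the fit. The sources used here do not give age, strain, the nature of the Dicer allele or how its deletion is driven, nor do they state that the replicate arrays came from separate cultures, so that p values may measure technical spread.

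OHT is the active metabolite of tamoxifen and a ligand of estrogen receptors. At low doses it is widely used to activate Cre recombinase joined to a mutated receptor. It is also a cationic amphiphilic compound that collects in acidic organelles, and tamoxifen and related compounds bind a complex of the sterol enzymes Ebp and Dhcr7. When sterol is scarce in the endoplasmic reticulum, the transcription factor SREBP2 is released from the proteins that retain it there and turns on the genes of cholesterol synthesis. When oxysterols are plentiful, the nuclear receptor LXR turns on genes of cholesterol efflux.

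Several technical readings moved with the drug or set arrays apart. The 18S ribosomal RNA control stood at 6.87 and 8.44 in untreated CDKO and at 11.64 and 11.21 in untreated WT cells, above all 4 arrays at 5 µM, which read 5.51 to 6.16. The difference between the 3' and 5' probe sets of the Gapdh control was 0.89 and 0.67 in untreated WT cells and at most 0.07 in the other 6 arrays of the fit. By the level of its hybridisation spike-in controls, replicate 2 of both CDKO groups formed a lower class and the other 6 arrays a higher class. The median SD between replicates was 0.31 and 0.29 in untreated and treated CDKO cells but 0.10 and 0.07 in WT cells. By correlation over the probe sets, CDKO 5 µM replicate 2 was most like CDKO untreated replicate 2 (r = 0.993). Its correlation with CDKO 5 µM replicate 1 was 0.986. The part of these readings in the results was not tested beyond the values given below. Of the 10 fibroblast markers, 9 had a mean above 4 in every group.

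In the additive fit 462 probe sets were higher at 5 µM (2.24% of those tested) and 347 lower (1.69%), and all 809 lay beyond the untreated arrays in both lines. Over genes, 210 were higher (1.98%) and 117 lower (1.1%). The drug effect among the shared genes ran from 0.62 to 4.57 with a median of 1.34 on the log2 scale for those higher, where a difference of 1 is a doubling, and from -0.65 to -4.42 with a median of -1.42 for those lower. Without regard to the test, 907 genes (8.56%) had both treated arrays above both untreated arrays in each line and 889 (8.39%) had them below. The counts rested on few arrays. Leaving out any single WT array left 2 probe sets higher and at most 1 lower. Without CDKO untreated replicate 1 the counts were 108 and 79, and without CDKO 5 µM replicate 1 they were 178 and 154. Without CDKO untreated replicate 2 they were 2275 and 2491, and without CDKO 5 µM replicate 2 they were 1292 and 1204. With the 18S reading as a covariate no probe set passed limma's test, and 2034 had an unadjusted p under 0.05, against 5957 in the fit without it. The reading was lower in all 4 treated than in all 4 untreated arrays, which by itself widens the error of the drug term. That fit therefore cannot tell the drug from the reading. Aldoc and Mmp3 passed in all 8 fits that left out an array, and every other shared gene lost its call when any 1 of the WT arrays was left out. Calls given below are those of the additive drug term unless a line or the difference between lines is named. Just inside the threshold stood Kif2c (-2.15 ± 0.47, SE of the model) and just outside it Acot13 (0.90 ± 0.19) and Cdh10 (0.74 ± 0.16).

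**Figure D1:**
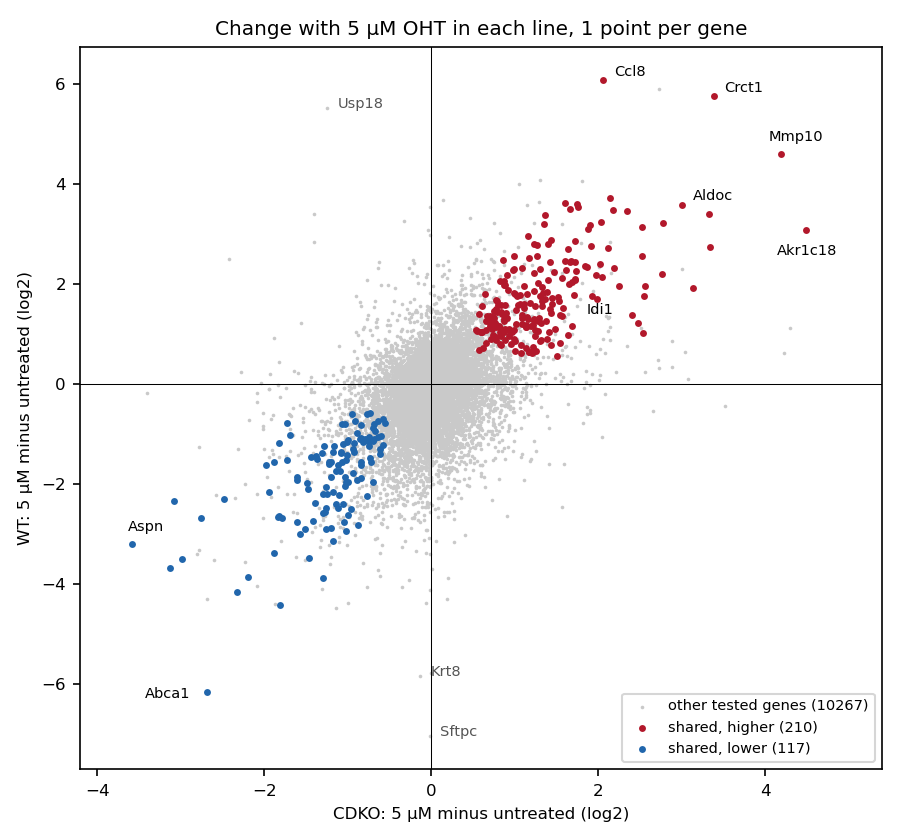
Mean log2 value at 5 µM minus untreated in CDKO cells (horizontal axis) and in WT cells (vertical axis), 1 point for each of 10594 tested genes, with the 210 shared higher genes in red and the 117 shared lower genes in blue. The shared genes lie in the upper right and lower left corners, away from both axes, while Sftpc and Krt8 fell in WT cells alone and Usp18 lay on opposite sides in the 2 lines.

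Enzymes of cholesterol synthesis formed the group with the largest share of its members among the shared genes. Of 20 tested, 16 rose, 8 of 10 in the mevalonate arm up to lanosterol and 8 of 10 after it, where 1.98% of all tested genes did, and 18 had a positive change in both lines. In the additive fit none was called lower by limma, nor was any lower at an unadjusted p under 0.05. The same held for the NRF2, hypoxia and lysosome lists described below. The median drug effect was 1.20 in the mevalonate arm and 1.41 after lanosterol, against -0.05 over all tested genes. In CDKO cells the medians were 0.99 and 1.35 and in WT cells 1.33 and 1.5.

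Idi1, which interconverts the isoprenoid building blocks, stood at 11.30 and 11.67 in untreated and 13.22 and 13.18 in treated CDKO cells. In WT cells it stood at 11.51 and 11.56 untreated and at 13.31 and 13.30 treated. The groups did not overlap in either line, and the effect was 1.74 ± 0.14 (log2, SE, 4 arrays against 4; adjusted p = 0.00662). Fdps, which makes farnesyl diphosphate, rose by 1.64 ± 0.30, by 0.99 in CDKO and 2.30 in WT cells. Mvd and Pmvk, which act on phosphorylated mevalonate, rose by 1.41 ± 0.21 and 1.24 ± 0.20. Lss, which closes the lanosterol ring system, rose by 1.40 ± 0.14. Among the enzymes after lanosterol, Tm7sf2, a sterol reductase, stood at 8.56 and 7.73 in untreated and 10.24 and 9.77 in treated CDKO cells. Its WT arrays read 8.0 and 7.97 untreated and 10.34 and 10.31 treated, so that all 4 treated arrays lay above all 4 untreated arrays. Nsdhl, which removes the C4 carboxyl group, also rose by 2.10 ± 0.23 (adjusted p = 0.0113). Sc5d, a desaturase, rose by 1.61 ± 0.19, Msmo1, which oxidises the C4 methyl groups, by 1.57 ± 0.18 and Cyp51, the lanosterol demethylase, by 1.53 ± 0.14. Ebp, a member of the binding complex named above, rose by 0.99, while its partner Dhcr7 had a change of 0.77 that did not pass (adjusted p = 0.147). The exceptions besides Dhcr7 were Hmgcs1 at 0.51, Ggps1, which leads to geranylgeranyl diphosphate rather than sterol, at -0.25, and Lbr at -0.57. The 5 members named in the last 2 sentences, Ebp and Dhcr7 among them, were chosen after their values were seen.

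Of 11 tested genes that control this pathway 3 rose (background 1.98% higher). The median effect of the list was 0.14 (-0.05 without CDKO 5 µM replicate 2). Srebf2, which encodes SREBP2, stood at 8.84 and 9.08 in untreated and 9.45 and 10.08 in treated CDKO cells, and at 8.79 and 9.01 in untreated and 10.05 in both treated WT arrays (0.98 ± 0.19, adjusted p = 0.0405). Stard4, a carrier of cholesterol between membranes, rose by 0.90 ± 0.19 and Insig2, which retains SREBP in the endoplasmic reticulum, by 0.81 ± 0.17. In fatty acid synthesis 2 of 14 rose (background 1.98% higher), with a list median of 0.34. They were the desaturase Scd1 (1.32 ± 0.20) and the elongase Elovl6 (1.18 ± 0.24). Of 7 tested genes of cholesterol efflux and LXR, 1 fell and none was called higher (background 1.1% lower and 1.98% higher). At an unadjusted p under 0.05 in limma's additive fit, 3 were higher and 2 lower. The list median was -0.08, with -0.60 in CDKO and 0.43 in WT cells. In WT cells alone 1 member was called higher and 1 lower. The gene called in the additive fit was Abca1, which exports cholesterol to apolipoproteins. It stood at 10.02 and 7.44 in untreated and 5.52 and 6.58 in treated CDKO cells, and at 9.92 and 10.11 in untreated and 4.05 and 3.66 in treated WT cells. The untreated CDKO arrays were far apart, yet both lay above the treated ones, and the effect was -4.42 ± 0.82 (adjusted p = 0.0378).

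**Figure D2:**
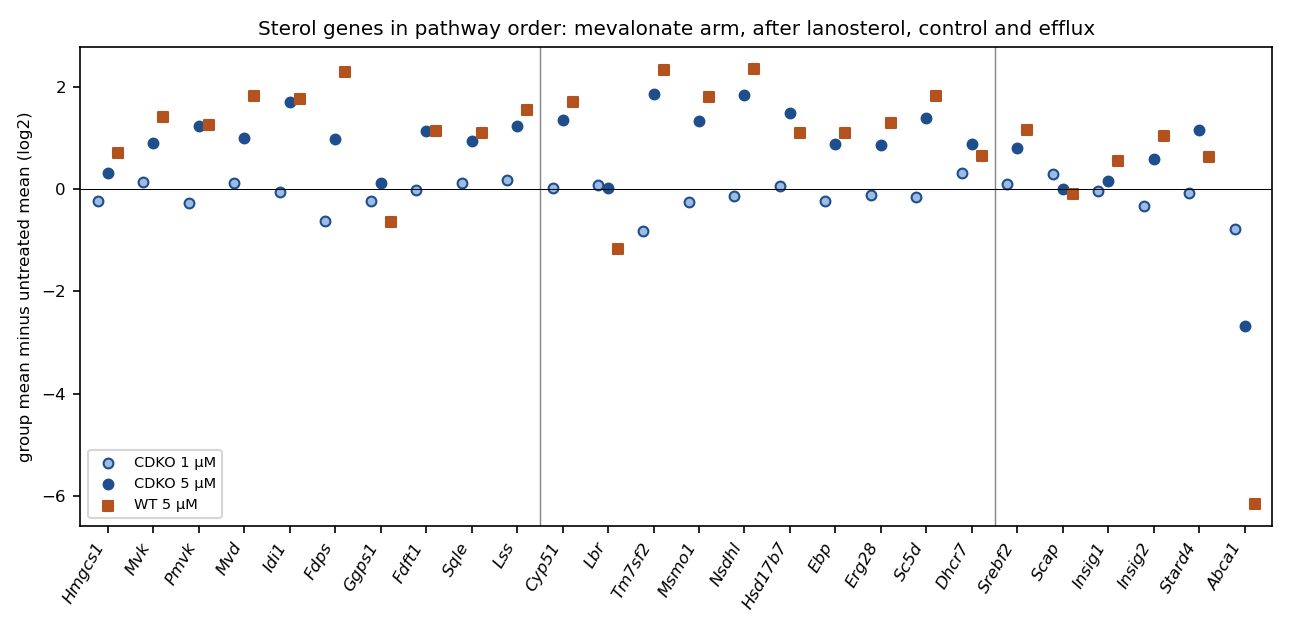
Change of each group mean from the untreated mean of the same line (log2) for the tested sterol genes in pathway order, from Hmgcs1 to Lss, from Cyp51 to Dhcr7, then control genes and the exporter Abca1. At 5 µM most enzymes lie above 0 in both lines, at 1 µM in CDKO cells most lie near 0, and Abca1 lies at -2.68 in CDKO and -6.16 in WT cells at 5 µM.

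A sterol response element (TCACNCCAC, searched on both strands in RefSeq promoter windows of the GRCm38.p6 build from 250 bases before to 50 after each start) was found in none of the windows of 15 genes of the sterol lists that were called higher and had one, and in 1 of 11 that were not called, Hmgcs1. Over all 27025 genes with a window the share was 1.44%, and over the tested genes 1.39%. The stretch before the start of Hmgcs1, the enzyme that makes HMG-CoA, is shown because it holds the match. It lies at chr13:119690101-119690350 on the plus strand, 5′ to 3′, with the match in capitals, its first base 137 bases before the start.
Hmgcs1: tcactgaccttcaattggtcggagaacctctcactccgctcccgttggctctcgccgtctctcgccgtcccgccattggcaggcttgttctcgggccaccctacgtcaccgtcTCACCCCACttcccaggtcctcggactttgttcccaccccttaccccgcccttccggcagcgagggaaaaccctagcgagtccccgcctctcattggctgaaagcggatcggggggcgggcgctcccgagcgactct
No match says only that these letters are not in the window.

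Secreted proteases and a protease inhibitor were among the 14 genes with the largest shared increase. In the list of secreted inflammatory factors and proteases 6 of 25 rose and none was called lower (background 1.98% higher), with a median effect of 0.67. Mmp10, a stromelysin that degrades matrix proteins, stood at 4.50 and 7.84 in untreated and 10.05 and 10.67 in treated CDKO cells. In WT cells it went from 5.39 and 5.51 to 10.12 and 9.98. All 4 treated arrays read close to 10 and all 4 untreated arrays lower (4.39 ± 0.63, adjusted p = 0.0216). Mmp3, the related stromelysin, went from 4.56 and 4.89 to 7.71 and 7.29 in CDKO cells. In WT cells it started higher, at 6.73 and 6.77, and read 9.94 and 9.98 with the drug. The change was of like size in both lines, 2.77 and 3.21, and the effect of 2.99 ± 0.18 had an adjusted p of 0.00308. Serpinb2, which inhibits plasminogen activators, went from 2.93 and 4.40 to 7.86 and 6.11 in CDKO cells and from 2.83 and 2.96 to 6.27 and 6.32 in WT cells. Its untreated values were at or near background, so the effect of 3.36 ± 0.44 is not a ratio of transcript amounts. It was the single call among 9 tested clade B serine protease inhibitors (background 1.98% higher).

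Mmp12, the macrophage elastase, rose by 1.52 ± 0.21, and the chemokine Ccl8 by 4.07 ± 0.84, by 2.06 in CDKO and 6.07 in WT cells. Havcr2, an immune checkpoint receptor also known as TIM-3, went from 2.70 and 5.08 to 7.48 and 7.0 in CDKO cells and from 3.98 and 3.63 to 6.63 and 6.44 in WT cells (3.04 ± 0.48). These 3 genes are known from macrophages. Of 15 macrophage and leukocyte markers tested none was called by limma's additive test (3 higher at an unadjusted p under 0.05), with Cd68 at 1.85 (adjusted p = 0.0568), Lyz2 at 1.36 and Mpeg1 at 1.39. In WT cells alone 2 of the 15 were called higher (7.2% of all tested genes were), Cd68 by 2.27 (adjusted p = 0.0445) and Lyz2 by 1.79 (adjusted p = 0.0406). The median of the list was 0.05, and it ran from -0.27 without CDKO 5 µM replicate 1 to 0.45 without CDKO 5 µM replicate 2, so its sign differed between these fits. On the log2 scale, the summed level of the list was 12.70 and 11.67 in untreated and 13.54 and 11.82 in treated CDKO cells. In WT cells it was 13.49 and 13.52 untreated and 14.15 and 14.12 treated. Lyz2 had the highest mean of the list in every group and so weighed most in this sum. Its mean went from 11.45 to 13.24 in WT cells. The members did not move together, and in the additive fit 8 effects were positive and 7 negative. In WT cells the mean of Csf1r went from 10.56 to 8.84 and that of Laptm5 from 10.55 to 9.63. Csf1r and Laptm5 were chosen after their values were seen. All 15 had a mean of at least 4 in some group, although Cybb stayed under 4 in CDKO cells and Ptprc stood at 3.75 in untreated CDKO cells. The part of such cells in these changes was not tested. In bulk RNA, more cells of a type cannot be told apart from more RNA per cell.

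**Figure D3:**
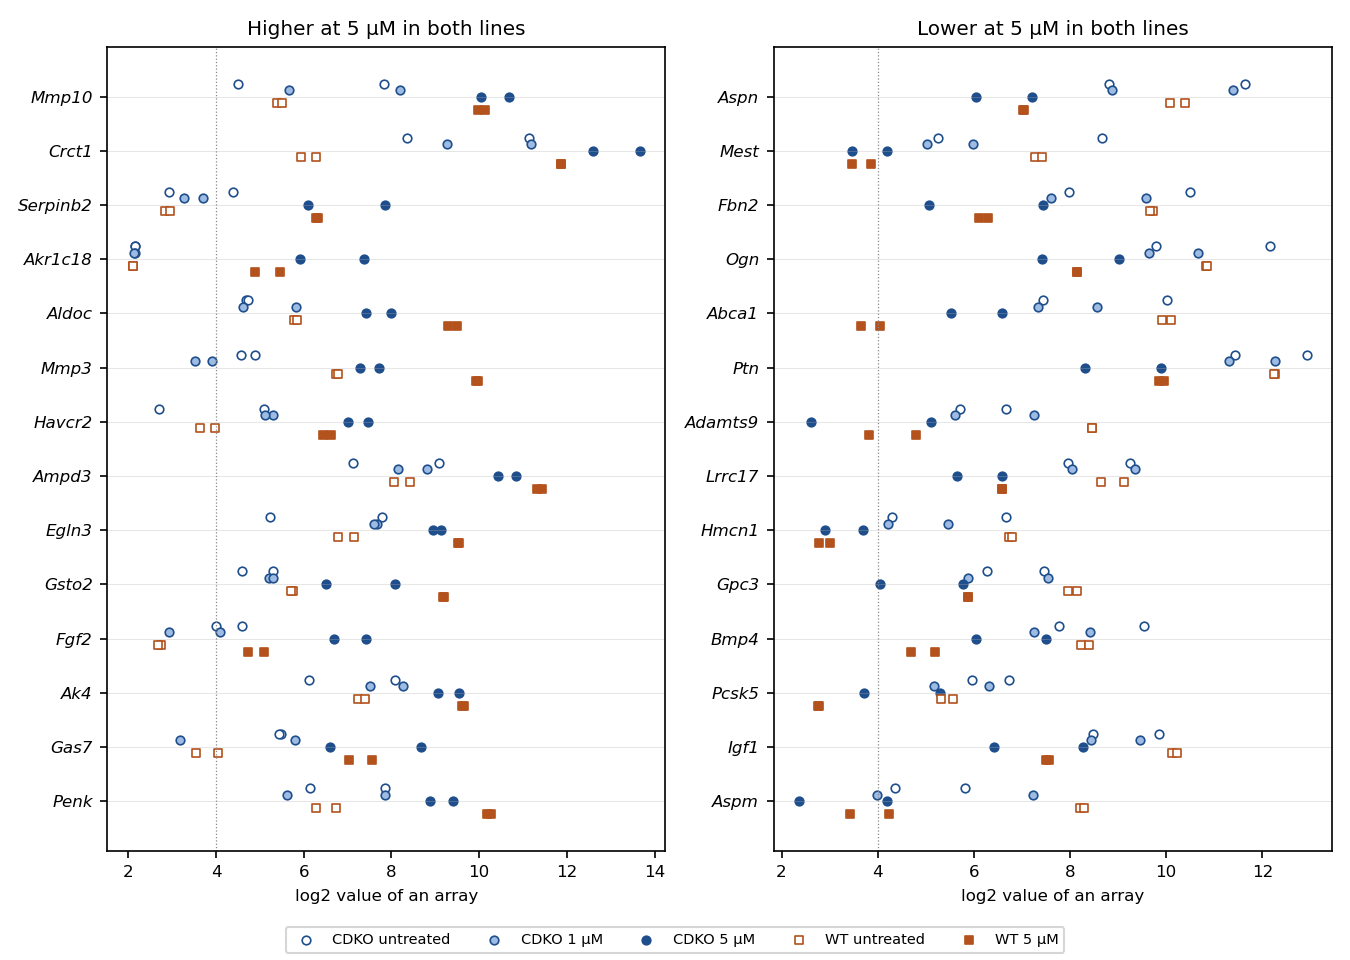
Log2 value in each array for the 14 shared genes with the largest change in each direction, ordered by the smaller of their changes in the 2 lines. Circles are CDKO and squares WT arrays, open symbols are untreated and dark symbols 5 µM, light circles are CDKO at 1 µM, and the dotted line marks 4. In each line the dark symbols lie on 1 side of the open ones, and the WT replicates lie closer together than the CDKO replicates.

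Further genes among the 14 with the largest shared increase had varied known roles. Crct1, a gene of the epidermal differentiation complex, stood at 8.36 and 11.12 in untreated and 13.67 and 12.59 in treated CDKO cells, and at 5.95 and 6.29 in untreated and 11.87 and 11.86 in treated WT cells (4.57 ± 0.70). Akr1c18, an aldo-keto reductase that inactivates progesterone, was at background in all 4 untreated arrays, between 2.10 and 2.16, and read 7.38 and 5.91 in treated CDKO and 4.89 and 5.47 in treated WT cells (3.79 ± 0.41, adjusted p = 0.0113). None of its untreated arrays reached 4 and all of its treated arrays did. Fgf2, a fibroblast mitogen, rose by 2.48 ± 0.24 and Penk, the precursor of enkephalins, by 2.92 ± 0.46. Gsto2, an omega class glutathione transferase, rose by 2.89 ± 0.39, Ampd3, an AMP deaminase, by 2.83 ± 0.41, and Gas7, which binds actin, by 2.83 ± 0.48. Among the 16 tested aldo-keto reductases and retinol-handling enzymes, Akr1c18 and Akr1b8 (1.01 ± 0.21) rose and Dhrs3, which reduces retinal, fell by 1.53 ± 0.33. The background is 1.98% higher and 1.1% lower.

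Of 26 tested genes of hypoxia and glycolysis 6 rose (background 1.98% higher) and none was called lower, and 24 had a positive change in both lines. The median effect was 0.91, 0.54 in CDKO and 0.88 in WT cells. Aldoc, a fructose-bisphosphate aldolase, stood at 4.67 and 4.73 in untreated and 7.42 and 7.99 in treated CDKO cells and at 5.77 and 5.84 in untreated and 9.50 and 9.28 in treated WT cells. The replicates lay within 0.6 of each other in every group, and the effect of 3.29 ± 0.20 had an adjusted p of 0.00308. Egln3, a prolyl hydroxylase that marks hypoxia-inducible factors for destruction, went from 5.22 and 7.79 to 8.94 and 9.12 in CDKO cells and from 6.79 and 7.16 to 9.54 and 9.51 in WT cells (2.53 ± 0.49). Bnip3, a mitophagy receptor, rose by 2.03 ± 0.31, Pdk1, which restrains pyruvate dehydrogenase, by 1.38 ± 0.22, and the glucose transporter Slc2a1 by 0.95 ± 0.18. Ak4, a mitochondrial adenylate kinase that was not in the list, rose by 2.25 ± 0.39. The core of the hypoxia response element (TACGTG) occurred in 7 of the 24 windows of the tested list (29.2%), against 4.44% of tested genes, and Aldoc was the only 1 of the 6 called genes with it.

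NRF2, a transcription factor that responds to electrophiles and oxidants, has targets that supply reducing power and conjugate toxic compounds. Of 28 tested 5 rose, where 1.98% of all tested genes did, and none was called lower. The median effect of the list was 0.70, larger in CDKO (0.90) than in WT cells (0.42), a difference between medians that was not tested. Gene by gene, 2 of the 28 differed between the lines in their response in limma's test, where 0.85% of all tested genes did. A positive change in both lines was seen in 21 of the 28. Nqo1, a quinone reductase, stood at 8.93 and 8.74 in untreated and 11.76 and 11.01 in treated CDKO cells and at 6.69 and 7.07 in untreated and 8.48 and 8.76 in treated WT cells (2.15 ± 0.25, adjusted p = 0.0133). Hmox1, which degrades haem, rose by 2.08 ± 0.37, Srxn1, which repairs oxidised peroxiredoxins, by 1.84 ± 0.33 and Sqstm1, an autophagy receptor, by 1.11 ± 0.22. The antioxidant response element (TGACNNNGC) was present in the windows of 9 of 23 listed genes (39.1%), against 16.9% of tested genes. Srxn1 was the only 1 of the 4 called genes with a window that had it.

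Of 28 tested genes of lysosome and autophagy 4 rose (1.98% over all tested genes) and none was called lower, with a list median of 0.44. Gpnmb, a glycoprotein of lysosomes and melanosomes, stood at 9.27 and 9.54 in untreated and 11.67 and 11.21 in treated CDKO cells and at 8.97 and 8.88 in untreated and 12.18 and 12.14 in treated WT cells (2.64 ± 0.27, adjusted p = 0.0111). It is also abundant in macrophages, whose summed markers are given above. Gla, the lysosomal alpha-galactosidase, went from 9.13 and 9.81 to 11.77 and 11.22 in CDKO cells and from 9.01 and 9.02 to 11.41 in both treated WT arrays (2.21 ± 0.21, adjusted p = 0.0111). Both treated groups thus lay more than 1 above the untreated groups. Asah1, acid ceramidase, rose by 0.83 ± 0.15. The stretch before the start of Gla is shown because it holds the core of the CLEAR element (TCACGTGA) at 2 places, in capitals, their first bases 228 and 195 bases before the start. It lies at chrX:134601006-134601255 and is written along the minus strand, 5′ to 3′.
Gla: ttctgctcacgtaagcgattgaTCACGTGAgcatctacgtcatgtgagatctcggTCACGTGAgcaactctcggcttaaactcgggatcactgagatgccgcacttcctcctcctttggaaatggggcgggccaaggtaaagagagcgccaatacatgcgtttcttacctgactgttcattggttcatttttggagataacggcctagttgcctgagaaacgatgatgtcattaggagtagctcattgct
This core occurred in 5 of the 24 windows of the lysosomal list (20.8%) and in 2.44% of tested genes. Among shared genes with a window it occurred in 8 of 160 higher (5%) and in none of 100 lower. The sterol element occurred in 1.25% of shared higher, 1% of shared lower and 1.39% of tested genes. For the antioxidant element these shares were 17.5%, 14% and 16.9%, and for the hypoxia core 6.88%, 6% and 4.44%. The matches are descriptions of sequence and no evidence of binding.

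**Figure D4:**
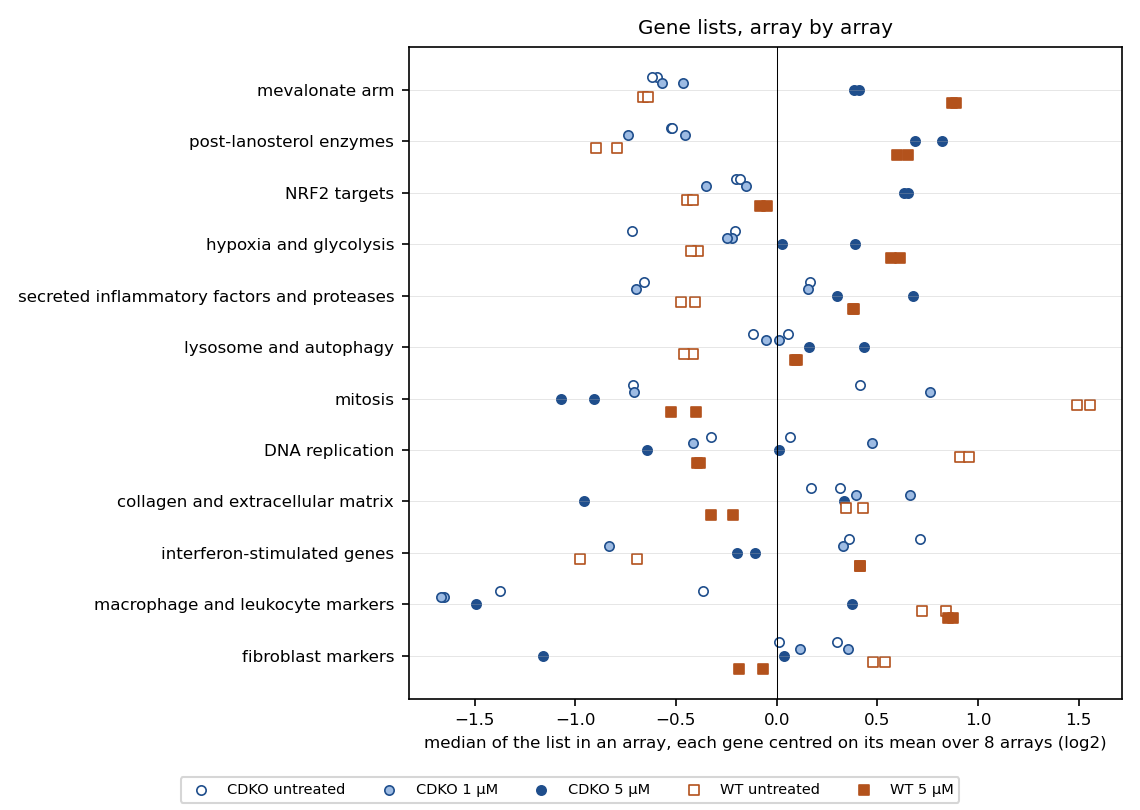
Median of each gene list in each array, every gene centred on its mean over the 8 arrays of the fit (log2). For the sterol and NRF2 lists the dark symbols of each line lie to the right of the open ones with replicates close together, whereas the untreated CDKO replicates of the mitosis list and the treated CDKO replicates of the matrix list lie more than 1 apart.

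The 14 shared lower genes with the largest change in the line where it was smaller included secreted proteins of the matrix. Aspn, a small leucine-rich proteoglycan that binds collagen, stood at 11.63 and 8.81 in untreated and 6.05 and 7.22 in treated CDKO cells and at 10.07 and 10.40 in untreated and 7.01 and 7.05 in treated WT cells (-3.39 ± 0.58, adjusted p = 0.0314). Ogn, a related proteoglycan, went from 12.16 and 9.79 to 7.42 and 9.03 in CDKO cells and from 10.83 and 10.85 to 8.15 and 8.14 in WT cells (-2.72 ± 0.53). In both genes the CDKO replicates differed by more than 1 while the WT replicates nearly coincided. Fbn2, a fibrillin of microfibrils, fell by 3.24 ± 0.65, the hemicentin gene Hmcn1 by 3.03 ± 0.56, and the secreted protein gene Lrrc17 by 2.40 ± 0.33. Adamts9, a metalloprotease that cleaves proteoglycans, fell by 3.24 ± 0.62. Of the 34 tested genes of the collagen and matrix list, which was drawn up apart from these, none passed limma's additive test, although 16 had an unadjusted p under 0.05, each of them lower, and 29 changes were negative with a list median of -0.72 (-0.46 without CDKO 5 µM replicate 1). Its largest changes were those of Eln at -3.06 (adjusted p = 0.0665), Fmod at -2.90 and Col6a2 at -2.40. The 10 fibroblast markers had no call in limma's additive test either (4 lower at an unadjusted p under 0.05), while in WT cells alone Pdgfra was called lower (-2.37, adjusted p = 0.013). Their median was -0.91, from -0.37 without CDKO 5 µM replicate 1 to -1.36 without CDKO 5 µM replicate 2, with summed levels of 16.91 and 17.19 in untreated and 16.33 and 17.09 in treated CDKO cells, and 17.36 and 17.39 in untreated and 16.95 and 16.94 in treated WT cells.

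Among growth factors and their processing, Igf1 stood at 9.86 and 8.48 in untreated and 6.41 and 8.27 in treated CDKO cells and at 10.12 and 10.23 in untreated and 7.50 and 7.57 in treated WT cells (-2.23 ± 0.46, adjusted p = 0.0461). In CDKO cells the nearest arrays of the 2 groups were only 0.21 apart. Ptn, a heparin-binding growth factor, fell by 2.71 ± 0.43 and Bmp4 by 2.63 ± 0.52. Tgfb3 fell by 1.26 ± 0.24, and Bmp4 and Tgfb3 were the 2 calls, both lower, among 25 tested ligands, receptors and SMADs of TGF-beta signalling (background 1.1% lower). Pcsk5, a convertase of secreted precursors, fell by 2.25 ± 0.37 and Gpc3, a glypican that binds growth factors, by 2.06 ± 0.40. Mest, an imprinted gene active in embryonic mesoderm, went from 8.67 and 5.26 to 3.47 and 4.2 in CDKO cells and from 7.28 and 7.41 to 3.46 and 3.86 in WT cells, that is, to near background (-3.41 ± 0.66). Of 21 tested actin and contractile genes Mylk, the myosin light chain kinase, fell (-1.74 ± 0.32; background 1.1% lower) and none was called higher.

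Of 28 tested mitosis genes 7 fell (25 at an unadjusted p under 0.05) and none was higher by either count in limma, where 1.1% of tested genes fell, and 27 had a negative change in both lines. The median effect was -1.39, -0.90 in CDKO and -1.93 in WT cells. Plk1, a kinase of mitotic entry, stood at 7.30 and 7.25 in untreated and 5.54 and 6.72 in treated CDKO cells and at 9.80 and 9.85 in untreated and 7.50 and 7.34 in treated WT cells (-1.77 ± 0.34, adjusted p = 0.04). Treated WT cells thus remained at about the level of untreated CDKO cells. Cenpe, a kinetochore motor, fell by 2.59 ± 0.54, Kif2c by 2.15 ± 0.47, Top2a, which untangles chromosomes, by 1.87 ± 0.37 and Ccna2, cyclin A, by 1.40 ± 0.29. Aspm, a spindle pole protein gene outside the list, fell by 3.12 ± 0.66. Of 31 tested DNA replication genes 2 fell, Rfc5 by 1.27 ± 0.26 and Mcm3 by 0.91 ± 0.17, with a list median of -0.78. That median was -0.18 in CDKO and -1.35 in WT cells. In WT cells alone 16 of the 31 were called lower (12% of all tested genes were), and in CDKO cells alone none was. With the 18S reading as a covariate the medians were -0.83 for mitosis and -0.11 for replication. Cdkn2a, which encodes cell cycle inhibitors, was the single call among 20 tested cyclins, kinases and inhibitors of G1 (background 1.98% higher). It rose by 2.27 ± 0.46, from 3.45 and 3.78 to 6.74 and 6.87 in WT cells and from 9.07 and 8.34 to 10.73 and 9.38 in CDKO cells, where it was already high. With the 18S reading as a covariate its effect was 0.20.

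Smaller counts were found in other lists. The background for these counts is 1.98% of tested genes higher and 1.1% lower, and 1 call in a list of over 20 genes is not far from it. Of 23 tested p53 targets 1 rose, the death receptor gene Tnfrsf10b (2.09 ± 0.38), and of 26 tested genes of the unfolded protein and integrated stress response Atf3 rose by 1.11 ± 0.20 and the folate enzyme gene Mthfd2 fell by 0.66 ± 0.13. Of 6 tested targets of the aryl hydrocarbon receptor 2 rose, Nqo1 and Serpinb2, both described above, and of 6 adipocyte markers Fabp4 rose by 0.93 ± 0.16. None of 7 tested estrogen receptor targets was called by limma's additive test (3 had an unadjusted p under 0.05), with Igfbp4 at -1.04 (adjusted p = 0.0752), Ctsd at 0.65 and Xbp1 at -0.54. Esr1 itself was unequal between the lines, with means of 9.0 and 9.65 in untreated and treated CDKO and 3.60 and 3.80 in WT cells, and had a drug effect of 0.42 ± 0.49 (adjusted p = 0.601). The 18 interferon-stimulated genes, 10 Wnt ligands and antagonists, 10 transporters, 13 microRNA machinery genes and 11 let-7 targets tested also held no call of the additive drug term in limma, with 2, 4, 4, 4 and 2 at an unadjusted p under 0.05. Nor did 6 epithelial, 8 skeletal muscle, 2 endothelial, 6 neural and 3 cartilage and bone markers, with 3, 7, 0, 1 and 1 at that level.

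Several of these lists held calls in WT cells alone, where 7.2% of tested genes were higher and 12% lower. In the interferon list 8 genes were higher in WT cells and 4 differed between the lines in their response, and its medians were -0.59 in CDKO and 1.33 in WT cells. Among the microRNA machinery genes 4 were lower in WT cells, Dicer1, Tnrc6a, Tnrc6b and Tnrc6c. Among the let-7 targets 2 were lower there, Dicer1 again and Igf2bp3. Of the Wnt genes Sfrp2 was lower in WT cells (-4.48, adjusted p = 0.00798). Of the transporters Abcg2 was higher in WT and Abcc4 and Slco4a1 in CDKO cells, the last 2 also by the test between lines. Of the estrogen receptor targets Tff1 was higher in WT cells (0.86, adjusted p = 0.0319). Among the epithelial markers 4 were lower in WT cells, with Krt8 at -5.84 and Sftpc at -7.04, and 3 differed between the lines. Among the skeletal muscle markers 6 were lower and Acta1 was higher in WT cells, and 4 differed between the lines. The endothelial marker Emcn was higher in WT cells (1.03), and the bone marker Ibsp was lower there (-5.79) and differed between the lines. Genes named in this paragraph beyond the naming rule were chosen after their values were seen.

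Dicer1, the gene made conditional in CDKO cells, lay below its untreated values in both lines on both of its probe sets. In WT cells alone both were called lower, and neither passed for the additive term or in CDKO cells alone. The probe set with the higher signal stood at 7.09 and 5.99 in untreated and 5.83 and 5.78 in treated CDKO cells and at 8.97 and 9.10 in untreated and 7.64 and 7.19 in treated WT cells (-1.17 ± 0.30, adjusted p = 0.0674). Its change was -1.62 in WT (adjusted p = 0.0283) and -0.73 in CDKO cells (adjusted p = 0.522). The other had an effect of -0.88 ± 0.23 (adjusted p = 0.0709), with -1.32 in WT (adjusted p = 0.013) and -0.44 in CDKO cells (adjusted p = 0.532). The difference between the lines passed on neither probe set (adjusted p = 0.416 and 0.211). The sources used here do not say where these probe sets lie relative to the deletion, so they check neither the deletion nor the labels.

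The lines differed in how much of the response each showed alone. In WT cells 763 genes were higher (7.2%) and 1271 lower (12%), while in CDKO cells 11 were higher (0.104%) and 1 lower (0.00944%), with 2 arrays against 2 in each line. The error of a gene was pooled over the 4 groups, so its SE was the same in both lines. The replicates were less alike in CDKO cells (median SD 0.31 and 0.29) than in WT cells (0.10 and 0.07). The calls of 1 line thus also depend on the spread in the other. Of the 763 genes higher in WT cells 620 (81.26%) had a positive change in CDKO cells, and of the 1271 lower 923 (72.62%) had a negative one, against 63.25% of all tested genes with the same sign in both lines. The change in CDKO cells was smaller than in WT cells in 159 of the 210 shared higher genes and 99 of the 117 shared lower genes. This was not particular to the shared genes. Over all tested genes the median absolute change was 0.23 in CDKO and 0.46 in WT cells. The response differed between lines in 90 genes (0.85%), of which none was among the shared higher and 2 were among the shared lower genes. These were Jag1, a Notch ligand, with -1.04 in CDKO and -2.77 in WT cells, and Lrr1 with -0.88 and -2.82, named after their values were seen. In probe sets, 4512 changed in WT cells, 26 in CDKO cells and 216 differently between the lines. Without a WT array these became 104 to 882, 0, and 5 to 15. Without CDKO untreated replicate 1 or CDKO 5 µM replicate 1, 2095 and 445 differed between the lines, and without the latter 12 changed in CDKO cells. Without CDKO untreated replicate 2 or CDKO 5 µM replicate 2, 1639 and 442 changed in CDKO cells. Across 10594 genes, which are not independent, the changes in the 2 lines had r = 0.48 and rho = 0.41. The 2 contrasts use different arrays, but the 18S reading moved with the drug in both.

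Within CDKO cells the replicates numbered 1 belonged to the higher spike-in class and those numbered 2 to the lower class, and each pair gives a change within its class. The median of the mevalonate arm was 1.18 in the higher and 0.90 in the lower class, and that of the enzymes after lanosterol 1.53 and 1.17. The NRF2 list stood at 1.05 and 0.84 and the hypoxia list at 0.65 and 0.49. The secreted factors stood at 1.38 and 0.39, the mitosis genes at -1.56 and -0.32 and the matrix genes at -1.13 and -0.03. Aspn changed by -5.59 and -1.59 in the 2 classes and Igf1 by -3.44 and -0.21, whereas Aldoc changed by 2.75 and 3.26. The sterol, NRF2 and hypoxia medians thus differed by less than 0.4 between the 2 pairs of arrays, and the matrix and mitosis medians by more than 1.

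At 1 µM, in CDKO cells alone, the means of most shared genes lay nearer their untreated than their 5 µM means. The median change of the 210 shared higher genes was 0.01 at 1 µM, beside 1.22 at 5 µM in the same line. For the 117 shared lower genes it was -0.11 beside -1.09. The mean at 1 µM lay nearer the untreated than the 5 µM mean in 197 and 102 of them. Both doses are set against the same untreated arrays, and the members were chosen on the 5 µM arrays, so these values are a description. In the enzyme lists the medians at 1 µM were -0.03 for the mevalonate arm and -0.13 after lanosterol, and Mmp10, at 8.19 and 5.66, lay within or near the range of its untreated arrays. The 2 arrays at 1 µM differed widely in the 18S reading, 5.21 and 10.16. They were also unlike in expression. Replicate 1 was most like CDKO untreated replicate 2 (r = 0.996) and replicate 2 most like WT untreated replicate 1 (r = 0.982). Aspn read 8.87 and 11.39 in them and Aspm 3.99 and 7.23. The means at 1 µM thus average unlike arrays, and do not show that a response was absent.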

How the data were processed

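RNA had been extracted with Trizol and hybridised to Affymetrix arrays. The authors deposited log2 values. The submitters' processing notes name GCRMA, with no version, chip definition or filter, and the log2 scale was read from the values. Of 45101 probe sets, 64 controls were left out, and 34958 have 1 symbol, 932 several and 9211 none in the platform annotation. R 4.3.3 with limma 3.58.1 (lmFit, eBayes) fitted line plus drug to 8 arrays (5 residual degrees of freedom) and 4 group means for each line and for their difference (4 degrees of freedom), with Benjamini-Hochberg adjustment over the tested probe sets. Errors of changes are SE, and the 2 arrays a group limit the precision. Tests of a line alone used the error pooled over the 4 groups. A gene is represented by its tested probe set with the highest mean. Scripts were tested on simulated data.

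The members and the 34 lists (26 pathway, 8 marker) were chosen with earlier results of these data known. Named are the 14 shared genes a direction with the largest change in the line where it is smaller, up to 5 called list members with the largest effect (up to 3 where none was called), up to 4 genes a direction by the test between lines, Dicer1, Esr1 and Esr2, which did not pass the filter. Replicate numbers were not treated as pairs: replicate deviations correlated at 0.43 between untreated and treated CDKO cells and at -0.06 to 0.10 between other groups. The alternatives were filters, variance priors, scaling, array weights, a replicate block, other models, the spike-in class as a block, a minimum change and left-out arrays. The 18S covariate and a fit on the higher spike-in class alone were chosen after seeing the data.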

Additional observations from a re-analysis of the deposited data

Results flagged for a closer look

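Among the genes named by rule, 14 had a response to 5 µM that differed between the lines in limma's test of that difference (change in CDKO minus change in WT cells, log2, 2 arrays a group). A first set was high in untreated WT cells alone. Sftpc, a lung surfactant gene, read 9.17 and 9.33 there and at most 2.76 in the other 8 arrays of the series, a difference of 7.03 (adjusted p = 0.000575). The same contrast gave 5.79 for Ibsp, a bone sialoprotein, 5.71 for Krt8, a keratin, 3.31 for the cadherin gene Cdh1, 4.48 for Myl1, 2.92 for Actc1 and 3.16 for Myh3, the last 3 of striated muscle. Map3k7cl differed by 4.11 and was also high in CDKO at 1 µM replicate 2, which read 6.54. These arrays, untreated WT and CDKO 1 µM replicate 2, are those with the highest 18S readings, from 10.16 to 11.64, and the part of that reading was not tested beyond the fit with it as a covariate.

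Genes higher with the drug in WT but not in CDKO cells were Usp18, which removes the ubiquitin-like modifier ISG15, with a difference of -6.76, Xaf1 with -4.24, Pdlim2 with -2.13 and Hal, histidine ammonia lyase, with -2.98. Usp18 went from 2.76 and 3.10 to 8.42 and 8.48 in WT cells and from 7.42 and 7.07 to 5.87 and 6.14 in CDKO cells, in opposite directions. The transporter gene Abcc4 rose in CDKO cells (2.66) and had a change of -0.54 in WT cells, a difference of 3.19. It stood at 9.73 and 9.83 in treated CDKO cells and between 6.56 and 7.48 in the other arrays. Slco4a1, another transporter gene, changed by 2.71 in CDKO and 0.48 in WT cells, a difference of 2.24.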

How the results depend on the processing

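The counts moved with many settings. The 28 genes of the first naming rule kept their sign in every alternative, the 18S covariate included. A loss of calls with that covariate cannot tell the drug from the reading, since the reading was lower in all treated arrays. Of the 28 genes of the first naming rule 2 passed in every fit that left out an array and none passed with the 18S covariate. Counts are given as probe sets higher and lower, then shared genes higher and lower. In the fit reported they were 462, 347, 210 and 117. Without a filter they were 120, 84, 66 and 21. With array weights they were 5787, 7162, 786 and 773, with 4 group means 1858, 1826, 481 and 425, with no line term 59, 27, 38 and 6, and with a block for the spike-in class 1056, 841, 365 and 252. Using all 10 arrays gave 652 and 805 probe sets and 289 and 179 genes. Adjusting over 1 probe set per gene gave 195 and 103. A minimum change of 1 gave 2 higher and 0 lower (limma; 634 probe sets with unadjusted p under 0.05). With the 18S covariate all 4 counts were 0 (2034 with unadjusted p under 0.05), and on the higher spike-in class alone they were 3258, 3754, 1368 and 2024. With a replicate block they were 160, 113, 86 and 19, with 100 probe sets differing between the lines, 0 changed in CDKO alone (limma; 2464 with unadjusted p under 0.05) and 4255 in WT alone.

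The probe sets that differed between the lines numbered 216. Without a filter they were 385, with a filter at 6 they were 111, with array weights 21, with all 10 arrays 73, over 1 probe set per gene 94 and with a minimum change 16. Those changed in CDKO alone numbered 26. Without a filter they were 58, after centring 17, after quantile normalization 11, and 0 with array weights or a minimum change (limma; 1014 and 266 with unadjusted p under 0.05). Those changed in WT alone numbered 4512, and were 12135 with array weights, 1913 with all 10 arrays, 2027 over 1 probe set per gene and 292 with a minimum change.

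Leaving out each array in turn gave 2 to 2275 probe sets higher, 0 to 2491 lower, 2 to 829 shared genes higher, 0 to 1285 lower, 5 to 2095 differing between lines, 0 to 1639 changed in CDKO alone and 104 to 6398 in WT alone. The single arrays left out in such a fit leave a group with 1 array, which is assumed to vary like the others.

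The sign turned with the 18S covariate for Sftpc (2.60), Ibsp (2.10), Krt8 (2.04), Map3k7cl (1.51), Usp18 (-3.95), Hal (-1.15), Xaf1 (-3.09), Pdlim2 (-1.58), Stat2 (-0.43), Rtp4 (-3.89), Tnrc6c (0.47), Tnrc6a (0.78), Pdgfra (0.23), Cdh1 (1.19), Myl1 (1.90), Actc1 (0.64), Myh3 (0.80), Eng (0.24), Emcn (-1.89), Ncam1 (1.07) and Col2a1 (1.61), none of them a shared gene. With array weights Abcc4 stood at -0.31. Over the left-out arrays Eng ran from -0.51 to 0.016 and Emcn from -0.16 to 0.39. Of 34 list medians 19 kept their sign in every alternative, among them the sterol synthesis, NRF2, lysosome, hypoxia, secreted factor, mitosis, replication and matrix lists. Sizes moved, and with the 18S covariate the replication median went from -0.78 to -0.11, that of matrix genes from -0.72 to -0.32, of mitosis from -1.39 to -0.83, of fibroblast markers from -0.91 to -0.31, of NRF2 targets from 0.70 to 1.04 and of secreted factors from 0.67 to 1.45. The median of the SREBP control list was -0.10 with array weights, that of TGF-beta genes 0.21 and of stress response genes 0.01 with the 18S covariate. Larger turns of sign came with that covariate in other lists. The interferon median went from 0.40 to -1.53 and that of epithelial markers from -1.15 to 1.62. For skeletal muscle markers it went from -1.46 to 0.72 and for cartilage and bone markers from -0.42 to 1.61. The causes were not tested. With 2 arrays a group and values under 4 near background, changes to or from such values are limited by signal.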

Other observations

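Of the shared genes, 45 of the 210 higher and 15 of the 117 lower belonged to a pathway list, and the following are genes outside the lists, chosen after their values were seen, so that no theme is claimed for them. Gbe1, the glycogen branching enzyme, stood at 7.18 and 7.12 in untreated and 8.86 and 9.38 in treated CDKO cells and at 6.27 and 6.18 in untreated and 8.41 and 8.37 in treated WT cells (2.07 ± 0.16, SE; adjusted p = 0.00662). Stc1, the hormone stanniocalcin, rose by 2.41 ± 0.32. Rragd, a RAG GTPase of nutrient sensing at the lysosome, went from 5.79 and 6.06 to 9.28 and 8.85 in CDKO cells and from 5.94 and 5.57 to 7.78 and 7.56 in WT cells (2.53 ± 0.28, adjusted p = 0.0113). The metallothionein genes Mt1 and Mt2 rose by 1.16 ± 0.17 and 1.60 ± 0.22, with nearly equal changes in both lines (1.14 and 1.18 for Mt1). Pcyt2, of phosphatidylethanolamine synthesis, rose by 1.45 ± 0.14, the lipid droplet genes Plin2 and Hilpda by 1.13 ± 0.24 and 1.53 ± 0.29, and Tmem97, the sigma-2 receptor, which binds several cationic amphiphilic drugs, by 1.10 ± 0.23. Dusp4, Dusp6 and Errfi1, feedback inhibitors of growth factor signalling, rose by 1.84, 0.81 and 0.83.

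Among the shared lower genes outside the lists, Zdbf2, an imprinted gene, went from 4.50 and 4.31 to 2.86 and 3.18 in CDKO cells and from 3.99 and 4.37 to 2.71 and 2.77 in WT cells (-1.41 ± 0.16, adjusted p = 0.0113), so that it ended under 4 in both lines. Il1r1, the interleukin-1 receptor, fell by 1.43 ± 0.16, Hmgb2, a chromatin protein of dividing cells, by 1.74 ± 0.21, the laminin gene Lama1 by 2.19 ± 0.29 and Vdr, the vitamin D receptor, by 2.08 ± 0.44. The RNA-binding protein genes Hnrnph1, Hnrnph3, Hnrnpd and Ewsr1 fell by 0.82, 0.99, 0.66 and 0.95.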
